A study of Mus musculus with 11 samples.

Results

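Keratin genes were taken as the protein-coding genes of the mouse whose symbol is Krt followed by a number alone. The rule found 49 of the 36528 genes listed, of which 26 encode type I and 23 encode type II keratins. Krt74 matched the symbol but was annotated as a pseudogene and was left out. Krt6a and Krt6b carry a letter after the number and fall outside the rule, so they are given only as partners of members.

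Keratins are the intermediate filament proteins of epithelial cells. A small, acidic type I keratin pairs with a larger, basic or neutral type II keratin, and a keratin protein without a partner is broken down. Simple epithelia make Krt8 with Krt18, the pair of the hepatocyte, and bile duct cells add Krt7 and Krt19. Stratified epithelia make Krt5 with Krt14 in the basal layer and switch above it to pairs such as Krt1 with Krt10 in skin or Krt4 with Krt13 in the oral mucosa and oesophagus.

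The RNA came from lines grown out of liver tumours of mice, and each of the 3 groups is defined by the mutant in its tumours. YAP (Yap1) and TAZ (Wwtr1) are coactivators that work with TEAD factors and that Hippo pathway kinases phosphorylate on serines. The mutants have alanine at such serines, at 1 named site in YAP-S127A (3 libraries) and TAZ-S89A (5 libraries) and at several in YAP-5SA (3 libraries, spelled YAP-S5A in the sample labels). All 3 groups therefore carry a mutant, and a group without any was not analysed here. Nothing in the labels tells which cells or promoter drove the mutant, the animals' age or strain, or whether a group's libraries come from separate tumours, lines or cultures. P-values therefore measure only how far these libraries spread, and that spread may be technical.

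Total counts ran from 20071144 to 49159713 per library. Libraries of 1 group were more alike than those of different groups, with log2 CPM correlations across genes of at least 0.977 within groups and at most 0.874 between them. TAZ-S89A replicates 4 and 5, which carry another series of sample numbers, differed from each other less than any other pair of a group did, by a chi-square of 2.01 per degree of freedom, where counting error alone gives about 1. TAZ-S89A replicates 1 and 2 were next, at 5.63, and YAP-S127A replicates 1 and 2 followed at 6.34. Other pairs differed far more. TAZ-S89A replicate 3 differed from the rest of its group by 101 to 218, and replicates 1 and 2 from 4 and 5 by 126 to 155. YAP-5SA replicate 2 differed from replicates 1 and 3 by 83.0 and 131. Whether the closest libraries share a line or culture is not in the labels. Each was counted as its own replicate, so the n given for a group may exceed its independent units. Hepatocyte genes were at low levels. The 14 listed markers summed to 20.7 to 25.5 CPM (counts relative to the scaled library total) in YAP-S127A, then 31.5 to 47.4 in YAP-5SA and 1.86 to 2.90 in TAZ-S89A, with Serpina1a, Pck1 and G6pc at 0 in all groups and Alb at most 1.31 CPM. Hnf4a, Trf and Ass1 were measurable in the YAP groups, at 6.72 to 9.25, 6.55 to 9.94 and 5.05 to 30.6 CPM. Of the 14 markers 10 were not tested for low counts. The 4 tested were all called lower in TAZ-S89A than in each YAP group. Of all genes tested, 30.6% were lower against YAP-S127A and 31.0% against YAP-5SA. Epcam, a general epithelial and bile duct marker, reached at most 0.178 CPM in any library. Epcam was not tested and so falls outside the rule for named genes. It does not stand for its list. Of the 12 general epithelial markers, 6 had a mean of 1 CPM or more in YAP-5SA, against 5 for YAP-S127A and 1 for TAZ-S89A. Esrp2 had the highest mean of them in each group. Its libraries held 42.4 to 58.7 CPM in YAP-5SA, compared with 14.7 to 16.6 for YAP-S127A and 7.72 to 13.0 for TAZ-S89A. In bulk RNA such as this, fewer cells of a type and less RNA per cell cannot be told apart.

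Most keratin RNA was in YAP-5SA. Keratin reads made up 0.569% to 0.731% of all counts there, against 0.0349% to 0.0407% in YAP-S127A and 0.0449% to 0.0671% in TAZ-S89A. Of the 49 keratins, 39 had their highest group mean in YAP-5SA, 6 in YAP-S127A and 4 in TAZ-S89A. The 6 were Krt12, Krt222, Krt27, Krt28, Krt40 and Krt42, and the 4 were Krt10, Krt16, Krt81 and Krt88. Part of this ranking rests on very few reads. In YAP-5SA 11 of the 49 had only 1 to 3 pooled counts, and Krt34, Krt35 and Krt82 had 1 read over all libraries. The share of all genes with their highest mean in YAP-5SA was not counted. A mean of at least 1 CPM was reached by 18 keratins in YAP-5SA, 8 in YAP-S127A and 8 in TAZ-S89A, and by 18 in any group. Above 100 CPM stood 6 keratins in YAP-5SA (Krt7, Krt8, Krt18, Krt19, Krt76 and Krt80), 2 in YAP-S127A (Krt7 and Krt18) and Krt18 alone in TAZ-S89A.

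Counts were high enough for a test for 22 of the 49 keratins. The other 27 reached at most 0.774 CPM and 32 counts in any library. Differences were tested with edgeR's quasi-likelihood model on all genes, and a gene was called where its Benjamini-Hochberg adjusted p was under 0.05. The 3 comparisons share libraries, so their results are not independent of each other. A keratin that entered the test only through its level in 1 group had to differ. The counts and medians that follow therefore describe the members tested and not the family. By their levels, Krt4, Krt5, Krt15, Krt36, Krt76, Krt78 and Krt79 entered only through YAP-5SA. Krt12 did so only through YAP-S127A, and Krt16 and Krt88 only through TAZ-S89A. Their calls and adjusted p-values against the group they entered through are description only.

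Between YAP-5SA and YAP-S127A, 18 of the 22 were called, where 55.2% of all 18224 genes tested were. Higher in YAP-5SA were 17 (28.2% of all genes). Krt12 was the single lower one, where 27.0% of all genes were lower, and Krt10, Krt23, Krt88 and Krt222 were not called. The median log2 fold change was 4.22 over the 22 keratins and 0.01 over all genes. Between TAZ-S89A and YAP-5SA 18 were called as well (57.9% of all genes). Of these, 17 were lower in TAZ-S89A (31.0% of all genes) and Krt10 alone was higher (26.9% of all genes), with medians of -3.22 and -0.04. The 4 not called there were Krt13, Krt16, Krt88 and Krt222. Between TAZ-S89A and YAP-S127A 18 were called (57.6% of all genes), but the keratins split, with 8 higher in TAZ-S89A (27.0% of all genes) and 10 lower (30.6% of all genes). The 8 were Krt10, Krt13, Krt14, Krt16, Krt18, Krt36, Krt80 and Krt88, and the 10 were Krt5, Krt7, Krt8, Krt12, Krt15, Krt19, Krt20, Krt23, Krt87 and Krt222. The fitted median was -0.38 there and turned to 0.38 when genes with almost no counts in 1 group were set to the bounds or ratios of their counts, so it gives no direction. Over all genes that median was -0.03. When the log2 fold change also had to reach 1 in size, 18, 18 and 17 keratins were called in the 3 comparisons in the order given, where 34.4%, 33.8% and 32.2% of all genes were. The libraries of the groups compared did not overlap for 22, 18 and 15 of the 22 keratins, and for 69.6%, 52.0% and 57.8% of all genes.

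**Figure D1:**
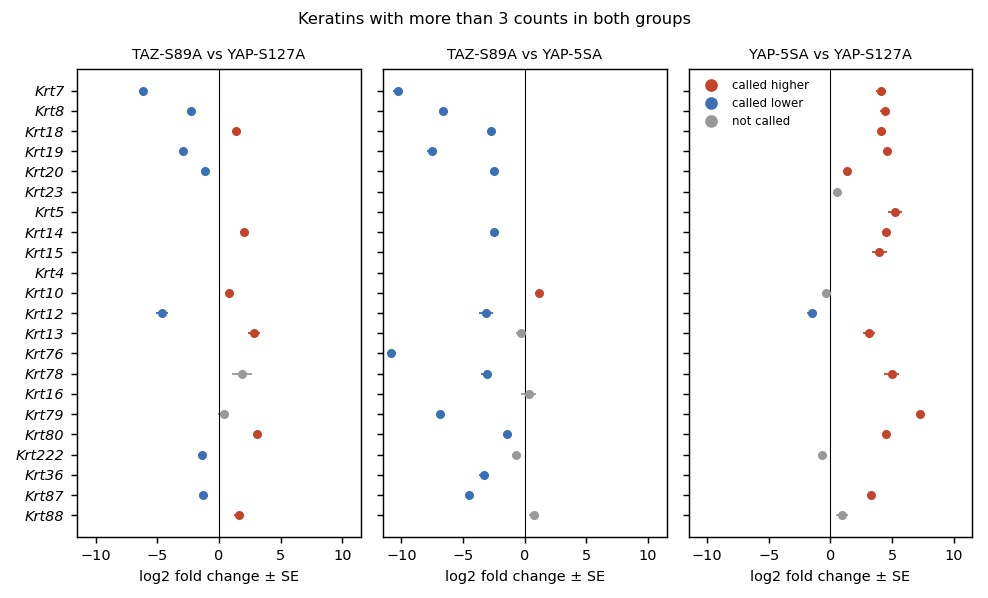
Log2 fold change with its standard error (x axis) for keratins with more than 3 counts in both groups compared (y axis), in the 3 comparisons. Red points were called higher in the group named first, blue points lower, grey points were not called. In YAP-5SA against YAP-S127A most points lie to the right of 0, in TAZ-S89A against YAP-5SA most lie to the left, and in TAZ-S89A against YAP-S127A the simple keratins split, with Krt18 to the right and Krt7, Krt8, Krt19 and Krt20 to the left.

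The simple keratins carried most of the family's RNA, with 94.7% to 97.4% of the summed keratin nRPKM (reads scaled for gene length and library, size-factor adjusted by the authors) in the YAP libraries and 85.2% to 91.3% in TAZ-S89A. Krt7, Krt8, Krt18 and Krt19 stood far above YAP-S127A in YAP-5SA. In TAZ-S89A, Krt7, Krt8 and Krt19 were lower than in YAP-S127A while Krt18, the type I partner of Krt8, was higher. Krt23 had no read in any of the 5 TAZ-S89A libraries.

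Krt8 and Krt18 sit beside each other on chromosome 15. The promoter windows of this pair, from 250 bases before to 50 after the annotated start on GRCm38.p6 (RefSeq), are shown because the ratio of this pair was far higher in TAZ-S89A than in either YAP group. Capitals mark the letters TATAAA on either strand, a match to the TATA box and not evidence of a site. Krt8 lies at chr15:102004293-102004592 on the minus strand and Krt18 at chr15:102027966-102028265 on the plus strand.
Krt8: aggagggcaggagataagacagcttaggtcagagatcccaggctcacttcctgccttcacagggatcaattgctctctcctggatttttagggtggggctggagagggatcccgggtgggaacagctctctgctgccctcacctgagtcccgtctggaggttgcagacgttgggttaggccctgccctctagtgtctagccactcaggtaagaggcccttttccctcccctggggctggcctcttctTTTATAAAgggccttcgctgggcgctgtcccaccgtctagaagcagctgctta
Krt18: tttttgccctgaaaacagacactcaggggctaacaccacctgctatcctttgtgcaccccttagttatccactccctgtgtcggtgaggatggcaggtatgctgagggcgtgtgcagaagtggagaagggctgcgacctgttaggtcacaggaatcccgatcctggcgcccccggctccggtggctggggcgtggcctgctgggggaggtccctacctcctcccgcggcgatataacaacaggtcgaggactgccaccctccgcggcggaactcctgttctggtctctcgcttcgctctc
The Krt8 window holds 2 such matches, which overlap on opposite strands, and the Krt18 window holds none.

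Krt8 encodes the type II keratin of simple epithelia. Its level was 30.0, 30.2 and 35.6 CPM in the YAP-S127A libraries, 593, 823 and 579 in YAP-5SA, and 3.94, 3.74, 9.37, 8.03 and 8.76 in TAZ-S89A. The groups did not overlap, with every YAP-5SA library above and every TAZ-S89A library below those of YAP-S127A. The log2 fold change was 4.38 ± 0.37 (SE, adjusted p = 2.56e-07) for YAP-5SA against YAP-S127A and -2.25 ± 0.29 (adjusted p = 1.47e-05) for TAZ-S89A against YAP-S127A.

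Krt18 encodes the type I partner. It stood at 151, 153 and 187 CPM in YAP-S127A, compared with 2603, 3420 and 2435 in YAP-5SA, and 325, 334, 582, 420 and 425 in TAZ-S89A. TAZ-S89A lay between the YAP groups for Krt18, with no overlap, and TAZ-S89A replicate 3 was the highest of its group. The log2 fold change was 4.10 ± 0.31 (adjusted p = 8.01e-08) for YAP-5SA against YAP-S127A and 1.35 ± 0.25 (adjusted p = 0.000468) for TAZ-S89A against YAP-S127A. Against YAP-5SA, TAZ-S89A was lower for both members of the pair, with log2 fold changes of -6.63 ± 0.33 for Krt8 and -2.76 ± 0.24 for Krt18 (adjusted p = 6.43e-10 and 2.59e-07).

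The pair was compared per length, as the ratio of nRPKM of Krt18 to Krt8 in each library. The ratio was 4.99, 5.01 and 5.20 in YAP-S127A and 4.34, 4.11 and 4.16 in YAP-5SA, although both genes were far higher in the second group. In TAZ-S89A it was 81.6, 88.1, 61.4, 51.7 and 47.9. The group means were 5.07 ± 0.114 (SD, n = 3), 4.20 ± 0.121 (SD, n = 3) and 66.1 ± 17.9 (SD, n = 5), and the 3 groups did not overlap. Within TAZ-S89A, replicates 1 and 2 gave the highest ratios and replicates 4 and 5 the lowest. Leaving out any 1 TAZ-S89A library kept the mean between 60.6 and 70.7. The levels behind the ratio were 1.66 to 4.15 nRPKM of Krt8 and 142 to 254 nRPKM of Krt18 in TAZ-S89A.

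Krt7 encodes the type II keratin of ducts and glands. It was at 93.7, 93.3 and 118 CPM in YAP-S127A, against 1601, 2231 and 1398 in YAP-5SA, and 1.04, 1.0, 2.49, 1.63 and 0.876 in TAZ-S89A. No other keratin with more than 3 counts in both groups differed as much between TAZ-S89A and YAP-S127A, with a log2 fold change of -6.17 ± 0.34 (adjusted p = 2.25e-09). Against YAP-5SA the log2 fold change of TAZ-S89A was -10.27 ± 0.39 (adjusted p = 4.56e-11), and YAP-5SA exceeded YAP-S127A by 4.10 ± 0.37 on the same scale (adjusted p = 5.37e-07).

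Krt19 encodes the smallest type I keratin, a bile duct and progenitor marker in liver. Its level was 48.9, 53.6 and 65.3 CPM in YAP-S127A, then 1231, 1758 and 1124 in YAP-5SA, and 4.32, 4.50, 9.92, 9.62 and 8.56 in TAZ-S89A. The order of the groups was that of Krt7 and Krt8, again without overlap. The log2 fold changes were 4.62 ± 0.38 for YAP-5SA and -2.93 ± 0.30 for TAZ-S89A, both against YAP-S127A (adjusted p = 2.09e-07 and 1.40e-06). The nRPKM ratio of Krt19 to Krt7 was 0.711 to 0.783 in YAP-S127A, compared with 1.05 to 1.10 in YAP-5SA and 5.42 to 13.3 in TAZ-S89A. By contrast, the ratio of Krt19 to Krt8 varied less between groups, from 2.29 ± 0.137 (SD, n = 3) in YAP-S127A and 2.69 ± 0.131 (SD, n = 3) in YAP-5SA to 1.45 ± 0.126 (SD, n = 5) in TAZ-S89A.

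**Figure D2:**
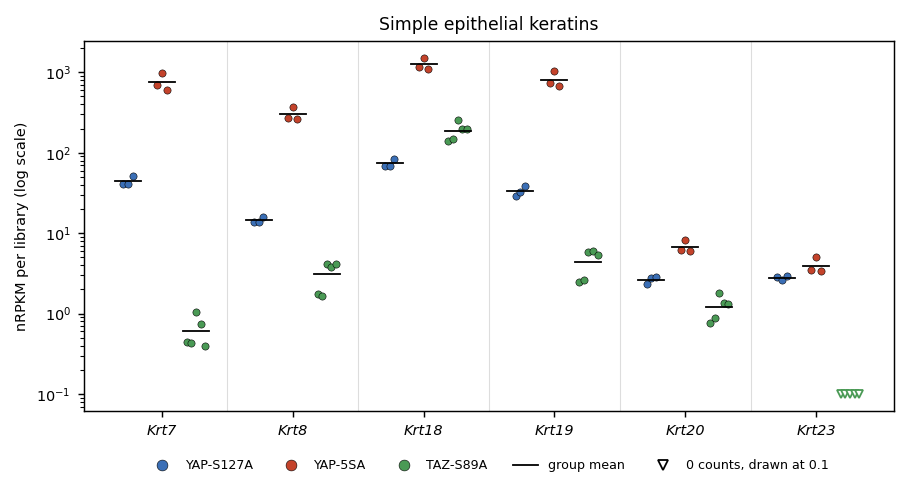
Level of the 6 simple epithelial keratins in each library (y axis, nRPKM, log scale), with points for libraries, bars for group means and triangles at 0.1 for libraries with 0 counts. Krt7, Krt8 and Krt19 run from YAP-5SA down to YAP-S127A and then TAZ-S89A, Krt18 is higher in TAZ-S89A than in YAP-S127A, and Krt23 has no read in TAZ-S89A.

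Per length, the order of the simple keratins differed between groups. In YAP-S127A it was Krt18 (73.6 ± 8.20 nRPKM, SD, n = 3), Krt7 (44.5 ± 5.75), Krt19 (33.3 ± 4.67) and Krt8 (14.5 ± 1.28), with no overlap between neighbours. In YAP-5SA it was Krt18 (1258 ± 233, SD, n = 3), Krt19 (813 ± 200), Krt7 (758 ± 187) and Krt8 (300.3 ± 61.1), where Krt19 and Krt7 overlapped. In TAZ-S89A Krt18 stood at 188 ± 46.2 (SD, n = 5). The next keratins by level were not simple ones, with Krt80 at 14.6 ± 3.71 and Krt10 at 9.68 ± 1.85, whose libraries overlapped. Krt19 (4.44 ± 1.74) and Krt8 (3.10 ± 1.29) followed, and their libraries overlapped. By mean, Krt20 (1.23 ± 0.412) and Krt13 (1.01 ± 0.419) stood above Krt7 (0.615 ± 0.287). Their libraries overlapped with each other and with those of Krt7.

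Krt20, a type I keratin of intestinal, gastric and urothelial cells, varied less. It was at 5.44, 6.56 and 6.75 CPM in YAP-S127A, against 14.7, 19.4 and 14.1 in YAP-5SA and 1.86, 2.14, 4.35, 3.02 and 3.01 in TAZ-S89A. The log2 fold change against YAP-S127A was 1.36 ± 0.26 for YAP-5SA and -1.13 ± 0.23 for TAZ-S89A (adjusted p = 0.000477 and 0.000982). Krt23, a type I keratin found in gut and pancreas, was at 5.26, 4.89 and 5.58 CPM in YAP-S127A and 6.49, 9.46 and 6.46 in YAP-5SA. These groups did not overlap, but the difference was not called (log2 fold change 0.51 ± 0.21, adjusted p = 0.0659). Without TAZ-S89A replicate 3, which enters the shared estimate of the spread, its adjusted p was 0.0463, and without the second ID series it was 0.0456. With 0 counts in TAZ-S89A, Krt23 was at least 299-fold lower there than in YAP-S127A and at least 426-fold lower than in YAP-5SA, the bound being set at 3 counts over the 5 libraries and covering counting error only.

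The Krt20 window is shown because it holds 3 of the letters GGAATG, the TEAD consensus, on either strand (capitals, with TATAAA also in capitals), more than the window of any other keratin in the table. It lies at chr11:99438104-99438403 on the minus strand of GRCm38.p6.
Krt20: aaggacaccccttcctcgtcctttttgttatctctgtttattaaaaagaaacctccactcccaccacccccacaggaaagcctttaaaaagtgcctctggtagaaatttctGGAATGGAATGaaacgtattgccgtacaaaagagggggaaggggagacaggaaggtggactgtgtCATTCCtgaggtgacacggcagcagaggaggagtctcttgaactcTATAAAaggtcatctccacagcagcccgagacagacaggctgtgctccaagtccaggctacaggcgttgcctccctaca
Promoter windows of 300 bases were given by RefSeq for 35 of the 49 keratins, 36 windows in all since Krt13 has several starts, and Krt4, Krt19 and Krt80 are not among them. GGAATG was in 3 of the 36 (8.33%), those of Krt14, Krt20 and Krt78, and in 14.7% of all 32851 windows. Some windows lie inside the annotated gene and not at its outer end. Those of Krt14 (chr11:100205981-100206280, gene to 100207510) and Krt78 (chr15:101954238-101954537, gene to 101996624) are among them. The AP-1 consensus TGANTCA was in 2 of the 36 (5.56%), both of Krt13, and in 7.81% of all. TATAAA, which was searched after the windows had been seen, was in 18 of the 36 (50%) and in 13.6% of all. These shares describe letters in short windows, and bound factors were not measured.

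Summed over the family, type I RNA exceeded type II by more in TAZ-S89A than in the YAP groups. Once Krt18 was left out, the TAZ-S89A libraries lay on both sides of the YAP libraries. The summed nRPKM of type I keratins was 1.89 to 1.99 times that of type II in YAP-S127A and 1.81 to 1.86 times in YAP-5SA. In TAZ-S89A it was 10.4, 11.1, 16.0, 8.83 and 9.18 times, without overlap with the YAP libraries. Without Krt18 the ratio was 0.704 to 0.776 in YAP-S127A and 0.712 to 0.742 in YAP-5SA. In TAZ-S89A replicates 1, 2 and 3 it was 0.989, 1.17 and 1.21, above every YAP library. In replicates 4 and 5 it was 0.657 and 0.690, below every YAP library. Krt18 made up 89.5% to 92.6% of type I nRPKM in TAZ-S89A, against 58.9% to 62.8% in the YAP libraries. Of type II nRPKM, Krt80 made up 66.4% to 82.3% in TAZ-S89A and 2.15% to 4.30% in the YAP libraries. Krt7 and Krt8, at 63.8% to 74.1% and 23.2% to 27.4% of type II nRPKM in the YAP libraries, were at 1.71% to 6.16% and 11.3% to 24.0% in TAZ-S89A.

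**Figure D3:**
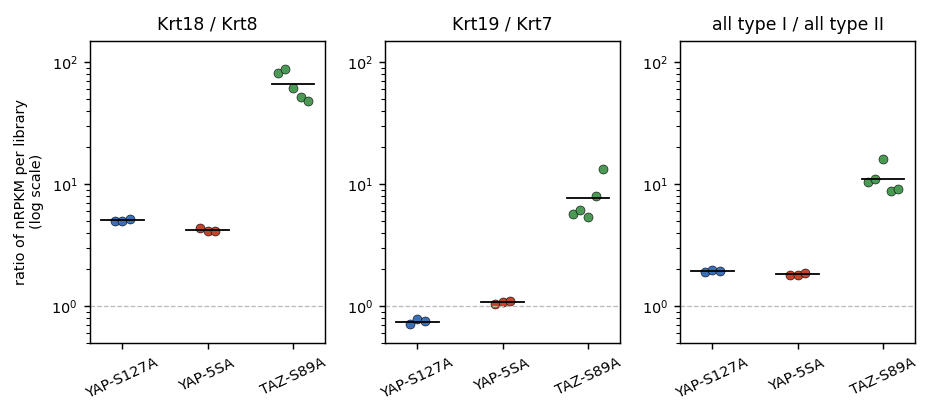
Ratio of nRPKM in each library (y axis, log scale) of Krt18 to Krt8, Krt19 to Krt7 and all type I to all type II keratins, by group (x axis). Points are libraries and bars are group means, and in each panel the 5 TAZ-S89A libraries lie above the 6 YAP libraries, as in the Krt18 to Krt8 ratio of 47.9 to 88.1 against 4.11 to 5.20.

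The basal keratins were at low levels throughout and highest in YAP-5SA. Krt14, the type I keratin of the basal layer, was at 0.111, 0.131 and 0.278 CPM in YAP-S127A, then 4.17, 3.90 and 3.73 in YAP-5SA and 0.566, 0.713, 0.812, 0.897 and 0.501 in TAZ-S89A. The groups did not overlap, and each difference was called, with log2 fold changes of 4.49 ± 0.33 for YAP-5SA and 2.0 ± 0.34 for TAZ-S89A against YAP-S127A (adjusted p = 6.16e-08 and 0.00018). Its type II partner Krt5 was at 1.23, 1.91 and 1.21 CPM in YAP-5SA, had 3, 0 and 1 counts in YAP-S127A and 0 counts in all TAZ-S89A libraries. Krt14 was therefore read without Krt5 in TAZ-S89A, where a total of 0 counts allows Krt5 up to 0.0176 CPM. In YAP-5SA the nRPKM ratio of Krt14 to Krt5 was 3.51 ± 0.877 (SD, n = 3).

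For Krt5 the log2 fold change of YAP-5SA against YAP-S127A was 5.22 ± 0.58 (adjusted p = 3.4e-05), and 6.30 without YAP-S127A replicate 1, which held 3 of the 4 counts of its group. Krt5 was at least 82.8-fold lower in TAZ-S89A than in YAP-5SA. Its call against YAP-S127A (at least 2.04-fold lower in TAZ-S89A, adjusted p = 0.047) rested on those 4 counts. It was lost without YAP-S127A replicate 1 (adjusted p = 0.208) or 3 (0.0703), YAP-5SA replicate 1 (0.059) or 3 (0.0579), or TAZ-S89A replicate 1 (0.0685), 2 (0.07), 3 (0.0654), 4 (0.0574) or 5 (0.0582). Over all alternatives its adjusted p ran from 0.0274 to 0.208.

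Krt15, another type I basal keratin that marks stem cells of the hair follicle bulge, was at 0.802, 1.22 and 1.09 CPM in YAP-5SA. It had 0, 4 and 3 counts in YAP-S127A and 1 count, in replicate 4, in TAZ-S89A. YAP-5SA exceeded YAP-S127A by a log2 fold change of 3.95 ± 0.60 (adjusted p = 7.22e-05), which was 3.25 without YAP-S127A replicate 1 and 4.67 without replicate 2. By pooled counts, Krt15 was 178-fold higher in YAP-5SA than in TAZ-S89A (95% interval 31.4 to 7081). It was 10.7-fold higher in YAP-S127A than in TAZ-S89A (1.38 to 482), and that call (adjusted p = 0.0499) did not hold. It was lost without YAP-S127A replicate 2 (adjusted p = 0.208) or 3 (0.124), YAP-5SA replicate 1 (0.0569), 2 (0.0606) or 3 (0.0617), or TAZ-S89A replicate 1 (0.0974), 2 (0.0998), 3 (0.0891) or 5 (0.0762). The range over all alternatives was 0.00859 to 0.208.

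Among the 11 suprabasal and differentiation keratins, 6 were tested and Krt76 stood out by level. Krt76, a type II keratin of the hard palate and other oral epithelium, was at 94.9, 128 and 80.2 CPM in YAP-5SA. It had 2, 0 and 0 counts in YAP-S127A and 2, 6, 1, 0 and 0 in TAZ-S89A. YAP-5SA thus held 12215 of its 12226 counts. By pooled counts, YAP-5SA exceeded YAP-S127A 5641-fold (95% interval 1561 to 46583, adjusted p = 2.87e-10). Against TAZ-S89A the log2 fold change was -10.82 ± 0.37 (adjusted p = 1.61e-11), and -11.85 without TAZ-S89A replicate 2, which held 6 of the 9 counts of its group. The window of Krt76 is shown as that of the member at the highest level in YAP-5SA among those near 0 in both other groups, at chr15:101892871-101893170 on the minus strand of GRCm38.p6, with TATAAA in capitals.
Krt76: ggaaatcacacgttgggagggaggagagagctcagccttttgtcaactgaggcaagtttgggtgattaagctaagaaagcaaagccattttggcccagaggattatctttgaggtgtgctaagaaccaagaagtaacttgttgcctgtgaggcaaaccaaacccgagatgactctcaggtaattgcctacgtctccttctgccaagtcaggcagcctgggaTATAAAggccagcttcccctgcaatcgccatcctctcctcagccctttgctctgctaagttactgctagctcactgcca
It holds 1 match to TATAAA, and none to GGAATG or TGANTCA.

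Krt4, the type II keratin of oral and oesophageal epithelium, followed the same distribution. It was at 13.2, 14.9 and 12.3 CPM in YAP-5SA, with 1 count in all of YAP-S127A and none in TAZ-S89A. By pooled counts YAP-5SA exceeded YAP-S127A 1504-fold (95% interval 269 to 59425, adjusted p = 3.57e-08), and Krt4 was at least 766-fold lower in TAZ-S89A than in YAP-5SA. Its type I partner Krt13 did not follow it. Krt13 was at 0.178, 0.164 and 0.361 CPM in YAP-S127A, compared with 2.14, 2.92 and 1.14 in YAP-5SA and 1.70, 2.18, 2.46, 0.775 and 1.04 in TAZ-S89A. YAP-5SA and TAZ-S89A overlapped for Krt13 (log2 fold change of TAZ-S89A -0.31 ± 0.37, adjusted p = 0.498), and both were above YAP-S127A, by 3.12 ± 0.52 and 2.82 ± 0.49 (adjusted p = 0.000163 and 0.000256). As with Krt14, the type I member of the pair was read in TAZ-S89A while the type II member had 0 counts. In YAP-5SA the nRPKM ratio of Krt13 to Krt4 was 0.243 ± 0.0857 (SD, n = 3), with Krt4 the more abundant.

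Krt10, the type I suprabasal keratin of skin, was the single member called higher in TAZ-S89A than in both YAP groups. It was at 15.1, 17.3 and 18.0 CPM in YAP-S127A, against 13.9, 11.3 and 13.1 in YAP-5SA and 30.5, 35.6, 33.8, 20.7 and 23.7 in TAZ-S89A. TAZ-S89A was higher than YAP-S127A by 0.78 ± 0.18 and than YAP-5SA by 1.18 ± 0.18 on the log2 scale (adjusted p = 0.00188 and 7.32e-05). The lower values of TAZ-S89A were those of replicates 4 and 5. YAP-5SA against YAP-S127A was not called (-0.39 ± 0.19, adjusted p = 0.102), although their libraries did not overlap. That adjusted p was 0.0122 without the second ID series, that is without TAZ-S89A replicates 4 and 5, and 0.0138 with only the YAP libraries in the fit. Its type II partner Krt1 had 0 counts in YAP-S127A and TAZ-S89A and 0.187, 0.765 and 0.774 CPM in YAP-5SA, and Krt2, another partner, had 1 or 2 counts per YAP-5SA library and none elsewhere. Krt10 RNA was therefore present without a measurable partner of its usual pairs in 2 of the 3 groups.

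Krt12, the type I keratin of the corneal epithelium, ran the other way and was highest in YAP-S127A, at 1.05, 0.853 and 0.944 CPM. It was at 0.267, 0.239 and 0.508 CPM in YAP-5SA and had 2, 2, 0, 2 and 0 counts in TAZ-S89A. Both were lower than YAP-S127A, with log2 fold changes of -1.48 ± 0.40 for YAP-5SA and -4.63 ± 0.50 for TAZ-S89A (adjusted p = 0.00659 and 2.55e-06). Krt12 overlaps the gene A830036E02Rik, and since the strand of counting is not given in the sources used here their reads may not be told apart. Krt78, a type II keratin of stratified epithelia, was at 1.60, 0.836 and 1.14 CPM in YAP-5SA and 0.0835 to 0.232 CPM in TAZ-S89A, a log2 fold change of -3.10 ± 0.44 (adjusted p = 3.63e-05). It had 4 counts in YAP-S127A, all in replicate 1. With that library, YAP-5SA exceeded YAP-S127A by 4.94 ± 0.64 (adjusted p = 1.82e-05) and TAZ-S89A exceeded it by 1.85 ± 0.80 (adjusted p = 0.0616). Without it YAP-S127A had 0 counts, and the fits gave 8.41 for YAP-5SA and 5.32 for TAZ-S89A (adjusted p = 0.00649 for the second). Fits against 0 counts give a direction and no measured size. The other 5 of this class, Krt1, Krt2, Krt9, Krt24 and Krt77, were not tested and reached at most 0.774 CPM, the level of Krt1.

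**Figure D4:**
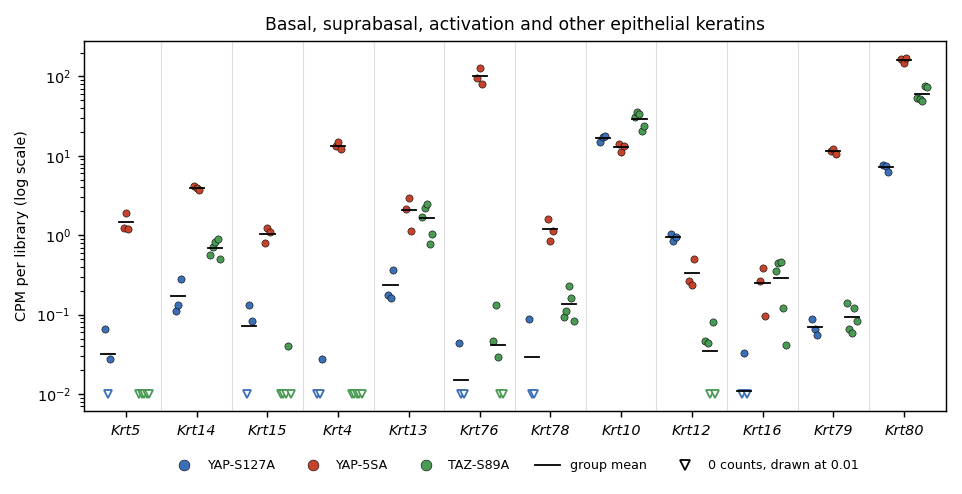
Level of the tested basal, suprabasal, activation and other epithelial keratins except Krt222 in each library (y axis, CPM, log scale), with points for libraries, bars for group means and triangles at 0.01 for libraries with 0 counts. Krt76, Krt4 and Krt79 are near 0 outside YAP-5SA, Krt10 is highest in TAZ-S89A and Krt12 is highest in YAP-S127A.

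The activation keratins, which skin makes on wounding, were near the limit of counting. Krt16 had 1 count in YAP-S127A, then 10, 16 and 4 counts in YAP-5SA and 15, 20, 16, 3 and 1 in TAZ-S89A. Both groups exceeded YAP-S127A by pooled counts, YAP-5SA by 27.7-fold (95% interval 4.61 to 1130, adjusted p = 0.00628) and TAZ-S89A by 36.0-fold (6.19 to 1447, adjusted p = 0.00226). YAP-5SA and TAZ-S89A overlapped (log2 fold change of TAZ-S89A 0.30 ± 0.58, adjusted p = 0.678). Krt17 was not tested and had 0 counts in YAP-S127A, compared with 12, 0 and 7 in YAP-5SA and 0, 0, 2, 1 and 3 in TAZ-S89A. Krt6a, their type II partner and no member by the rule, was at 10.2, 14.6 and 8.64 CPM in YAP-5SA with 0 counts in every other library. Krt6b had 3, 4 and 6 counts in YAP-5SA and none elsewhere. The sequences of Krt6a and Krt6b are close to identical, so the split of reads between them is uncertain.

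Krt80, a type II keratin of many epithelia, was the main type II keratin of TAZ-S89A. It was at 7.78, 7.38 and 6.28 CPM in YAP-S127A, against 165, 146 and 173 in YAP-5SA and 53.2, 51.9, 49.2, 76.3 and 73.5 in TAZ-S89A. The groups did not overlap, and TAZ-S89A lay between the YAP groups as it did for Krt18. The log2 fold changes were 4.49 ± 0.22 for YAP-5SA and 3.09 ± 0.19 for TAZ-S89A against YAP-S127A (adjusted p = 1.09e-09 and 1.02e-08), and -1.41 ± 0.16 for TAZ-S89A against YAP-5SA (adjusted p = 4.64e-06). Krt80 overlaps Gm35853 and Mir1941, and their reads may not be told apart. Per length, TAZ-S89A held 11.4 to 19.1 nRPKM of Krt80 against 142 to 254 of Krt18.

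Krt79, a type II keratin of the sebaceous duct and hair canal, was at 11.4, 12.2 and 10.6 CPM in YAP-5SA. It had 4, 2 and 2 counts in YAP-S127A and 6, 3, 2, 3 and 2 in TAZ-S89A, which overlapped (log2 fold change 0.38 ± 0.44, adjusted p = 0.601). YAP-5SA exceeded YAP-S127A by 7.25 ± 0.29 (adjusted p = 1.77e-10), and the log2 fold change of TAZ-S89A against YAP-5SA was -6.87 ± 0.23 (adjusted p = 1.21e-11). Krt222, a keratin-related gene of type I, was at 0.558 to 0.944 CPM in YAP-S127A, then 0.311 to 0.534 in YAP-5SA and 0.174 to 0.408 in TAZ-S89A. It was called lower in TAZ-S89A than in YAP-S127A (-1.35 ± 0.34, adjusted p = 0.00418) and overlaps Gm32385. Against YAP-5SA it was not called (-0.67 ± 0.36, adjusted p = 0.127) but was without the second ID series (adjusted p = 0.0414). Krt42, Krt75 and Krt90, the others of this class, were not tested and reached at most 9 counts.

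Of the 14 hair shaft keratins 3 were tested. Krt87, a type II hair keratin, was at 0.981, 0.787 and 0.555 CPM in YAP-S127A, compared with 8.95, 4.76 and 8.66 in YAP-5SA and 0.354, 0.357, 0.319, 0.326 and 0.167 in TAZ-S89A. The groups did not overlap, and the log2 fold changes were 3.25 ± 0.30 for YAP-5SA and -1.31 ± 0.32 for TAZ-S89A against YAP-S127A (adjusted p = 6.79e-07 and 0.00339). Krt36, a type I hair keratin, had 55, 50 and 53 counts in YAP-5SA, 1 count in YAP-S127A and 9, 7, 4, 3 and 0 in TAZ-S89A. By pooled counts YAP-5SA exceeded YAP-S127A 146-fold (95% interval 25.8 to 5800, adjusted p = 3.12e-06) and TAZ-S89A exceeded it 15.1-fold (2.44 to 619.8, adjusted p = 0.00755). Krt88 was highest in TAZ-S89A, with 15, 14, 14, 9 and 14 counts there, 6, 3 and 5 in YAP-S127A and 6, 7 and 16 in YAP-5SA. It was called only against YAP-S127A (1.63 ± 0.43, adjusted p = 0.00476), and its adjusted p against YAP-5SA was 0.116, or 0.0211 without YAP-5SA replicate 3. None of the 7 inner root sheath keratins was tested, and the highest of them, Krt71, had 5, 6 and 5 counts in YAP-5SA and none elsewhere.

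Keratins near zero were counted from the reads pooled over each group. Of the 49, YAP-S127A had 18 with 0 counts, 9 with 1 to 3 counts and 22 with more. In TAZ-S89A these were 22, 5 and 22, and in YAP-5SA 2, 11 and 36. The 2 without a read in YAP-5SA were Krt40 and Krt42, with 4 counts each in YAP-S127A. No member lacked reads in all 11 libraries. A total of 0 counts allows up to 0.0269 CPM in YAP-S127A, against 0.0249 in YAP-5SA and 0.0176 in TAZ-S89A. Per library, 38 to 39 keratins had at least 1 read in YAP-5SA, 22 to 25 in YAP-S127A and 18 to 23 in TAZ-S89A, where replicates 4 and 5 had 20246736 and 20071144 total counts and the others at least 35819107.

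Keratin genes form clusters on chromosomes 11 and 15. The chromosome 11 cluster held 25 members, all of type I, over 1037 kb, and that of chromosome 15 held the 23 members of type II and, at its end, Krt18, over 684 kb. Krt8 (chr15:101996711-102004342) and Krt18 (chr15:102028216-102032026) are 23.9 kb apart. Levels did not run together along the clusters. Krt18 and Krt80, at the opposite ends of the chromosome 15 cluster, were the type II cluster's highest in TAZ-S89A, while Krt7 beside Krt80 and Krt8 beside Krt18 were lower there than in YAP-S127A. Other genes within 500 kb of these clusters were tested in the same model, 36 for chromosome 15 and 35 for chromosome 11. For YAP-5SA against YAP-S127A, 16 of the 36 were higher and 8 lower (median log2 fold change 0.23), where 352 of all 695 other genes of chromosome 15 were higher and 90 lower (0.60). Near the chromosome 11 cluster 8 of the 35 were higher and 9 lower (0.04), where 530 of 1354 were higher and 232 lower over that chromosome (0.33). Over all genes 28.2% were higher and 27.0% lower. For TAZ-S89A against YAP-5SA, 3 were higher and 16 lower near the chromosome 15 cluster (-0.41), against 124 and 277 of the 695 (-0.29). Near that of chromosome 11, 8 were higher and 10 lower (0.15), against 302 and 411 of the 1354 (-0.08), with 26.9% higher and 31.0% lower over all genes. For TAZ-S89A against YAP-S127A the counts were 11 and 10 (0.13), against 281 and 155 over chromosome 15 (0.30), and 8 and 7 (-0.03), against 479 and 279 over chromosome 11 (0.22). Over all genes 27.0% were higher and 30.6% lower. Chromosome 15 as a whole was thus shifted in each comparison, and chromosome 11 was shifted upward in the comparisons against YAP-S127A. Other chromosomes were not examined. The part of these shifts in the keratin differences was not tested.

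**Figure D5:**
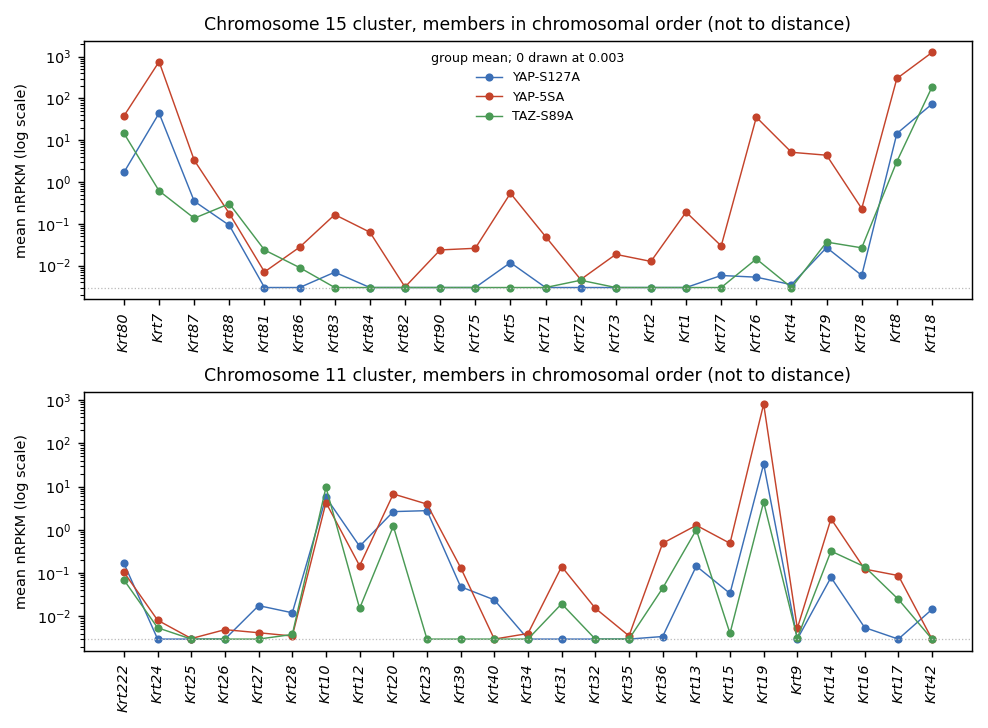
Mean nRPKM of each group (y axis, log scale, with 0 drawn at 0.003) for the 24 members of the chromosome 15 cluster and the 25 of the chromosome 11 cluster, in chromosomal order and not to distance (x axis). Krt80, Krt7, Krt76, Krt8 and Krt18 rise above their neighbours on chromosome 15 in YAP-5SA, Krt18 and Krt80 do in TAZ-S89A, and most hair and inner root sheath members lie near 0.

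Keratin filaments are anchored at desmosomes and hemidesmosomes, and 22 genes of these structures were listed, of which 17 were tested. In YAP-5SA against YAP-S127A 11 were higher and 1 lower, with a median log2 fold change of 0.67, where 28.2% and 27.0% of all genes were. In TAZ-S89A against YAP-5SA 3 were higher and 12 lower (median -1.05), where 26.9% and 31.0% of all genes were. Against YAP-S127A 6 were higher and 8 lower (-0.34), where 27.0% and 30.6% of all genes were. The same shares of all genes are the background of the lists that follow. Dsp, the desmoplakin that ties keratin to desmosomes, was at 15.7 to 16.5 CPM in YAP-S127A, then 22.7 to 27.4 in YAP-5SA and 0.250 to 0.652 in TAZ-S89A (log2 fold change against YAP-S127A -5.40 ± 0.22, adjusted p = 1.4e-10). Itgb4, the integrin chain of hemidesmosomes, was at 390 to 576 CPM in YAP-5SA, 15.9 to 18.1 in YAP-S127A and 3.30 to 4.62 in TAZ-S89A. Pkp1, a plakophilin of the stratified desmosome, ran against them, with 22.7 to 26.9 CPM in TAZ-S89A, 1.77 to 2.65 in YAP-5SA and 0.278 to 0.401 in YAP-S127A. Ppl, the plakin periplakin, was at 84.4 to 170 CPM in TAZ-S89A, between 30.4 to 35.0 in YAP-S127A and 287 to 397 in YAP-5SA, the order seen for Krt18 and Krt80.

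Of 16 genes of other intermediate filaments 11 were tested. In YAP-5SA against YAP-S127A 5 were higher and 1 lower (median log2 fold change 0.75), so that the 6 called of 11 lay near the 55.2% of all genes called. In TAZ-S89A 2 were higher and 6 lower than in YAP-5SA (-0.73), and 3 higher and 4 lower than in YAP-S127A (-0.17). Vim, the filament gene of mesenchymal and cultured cells, was at 2432 to 2612 CPM in YAP-S127A, compared with 4138 to 4551 in YAP-5SA and 1294 to 1966 in TAZ-S89A. Its log2 fold change was 0.75 ± 0.27 for YAP-5SA and -0.64 ± 0.23 for TAZ-S89A, both against YAP-S127A (adjusted p = 0.029 and 0.03). Vim falls outside the rule for named genes and was chosen after its values were seen. Nes, the progenitor filament gene nestin, was at 473 to 513 CPM in YAP-S127A, against 57.9 to 128 in TAZ-S89A and 2.20 to 2.28 in YAP-5SA, the group with the most keratin RNA.

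Of 16 transcription factors of epithelial cells 13 were tested. In YAP-5SA against YAP-S127A 8 were higher and 3 lower (median log2 fold change 1.56), where 28.2% and 27.0% of all genes were. In TAZ-S89A 4 were higher and 4 lower than in YAP-5SA (0.09), near the 26.9% and 31.0% of all genes, and 6 higher and 4 lower than in YAP-S127A (-0.10), where 27.0% and 30.6% of all genes were. Foxa2, a factor of liver and other endoderm, was at 7.64 to 8.62 CPM in YAP-S127A, then 21.9 to 25.4 in YAP-5SA and 0.118 to 0.612 in TAZ-S89A. Grhl3, a factor of stratified epithelia, was at 1.06 to 1.27 CPM in YAP-5SA and at most 0.0669 CPM in the other groups. Grhl1, a related factor, was at 2.81 to 3.12 CPM in YAP-5SA, 3.16 to 5.10 in TAZ-S89A and 0.222 to 0.334 in YAP-S127A.

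Markers of cell types are given beside the keratins as sums over each list. The 12 general epithelial markers summed to 34.3 to 37.5 CPM in YAP-S127A, compared with 73.7 to 87.1 in YAP-5SA and 9.52 to 14.3 in TAZ-S89A, with 5, 6 and 1 of them at a mean of 1 CPM or more. Of the 10 tested, 4 were higher and 1 lower in YAP-5SA than in YAP-S127A, a total under the 55.2% of all genes called. In TAZ-S89A none was higher, 8 were lower than in YAP-S127A (30.6% of all genes) and 9 lower than in YAP-5SA (31.0% of all genes). The 10 bile duct markers other than keratins summed to 1753 to 3657 CPM in TAZ-S89A, of which Spp1 was 1669 to 3586, and to 325 to 408 in YAP-S127A and 202 to 290 in YAP-5SA, where Onecut1 was at 0. The 6 markers of mesothelium, whose cells also make Krt7, Krt8, Krt18 and Krt19, summed to 730 to 766 CPM in YAP-S127A, against 1989 to 2183 in YAP-5SA and 980 to 1750 in TAZ-S89A, most of it Msln, with 4, 4 and 2 of the 6 at a mean of 1 CPM or more. Among these, Upk1b was at 102 to 151 CPM in YAP-5SA, 3.34 to 4.95 in YAP-S127A and 0.0891 to 0.261 in TAZ-S89A, and Upk3b was highest in YAP-5SA as well. The 12 fibroblast and stellate markers summed to 9062 to 9620, 4524 to 4839 and 3625 to 4746 CPM in YAP-S127A, YAP-5SA and TAZ-S89A, with Lrat and Lum at 0 in the first and the last of these. Vim carried 91.5% to 94.1% of that sum in YAP-5SA, and without it the sums were 6459 to 7008, 288 to 386 and 1828 to 3452 CPM. Of the 9 tested, 8 were lower and 1, Vim, higher in YAP-5SA than in YAP-S127A (median log2 fold change -6.38). In TAZ-S89A 8 of the 9 were lower than in YAP-S127A, and 4 were higher and 4 lower than in YAP-5SA. Pdgfrb, a receptor of stellate cells and fibroblasts, was at 438 to 493 CPM in YAP-S127A, 0.992 to 1.19 in YAP-5SA and 231 to 315 in TAZ-S89A. Col1a1 ran the other way between the last 2 groups, at 256 to 359 CPM in YAP-5SA and 27.5 to 36.5 in TAZ-S89A. Of the TAZ-S89A sum without Vim, Col1a2 was 1500 to 3056 CPM. The 8 leukocyte markers summed to 15.1 to 15.2, 52.7 to 55.1 and 7.93 to 9.53, with Adgre1 at 0 in the same groups. The part of other cell types in the keratin differences was not tested.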

How the data were processed

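The 11 libraries hold polyA RNA of mouse liver cancer cell lines (Qiagen RNeasy extraction, per the labels). Per the file headers, the deposited count of a gene is the number of reads that align uniquely to its model, and the nRPKM column is an RPKM value to which the authors applied a size factor. Reads were aligned with GSNAP to GRCm38, per the submitters' processing notes. Not given in the sources used here are versions, the counting tool, the annotation release and how strand was treated. Reads shared by near-identical genes are lost from such counts, so levels of close keratin copies and of overlapping genes are uncertain.

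Symbols, types and positions came from RefSeq GRCm38.p6, which matched 31049 of 36528 gene IDs. The 5479 others, with 2.91% of counts, stayed in the totals. In R 4.3.3, edgeR 4.0.16 kept 18224 genes by filterByExpr, scaled libraries by TMM and fitted 1 robust quasi-likelihood model to all 11 libraries with group as the only term. Adjusted p-values are Benjamini-Hochberg over all genes tested, with a threshold of 0.05. A standard error is the log2 fold change divided by the square root of F. Different genes were compared only by nRPKM, and ratios within pairs were taken where both genes exceeded 0.1 nRPKM in every library of a group. A fold against a group with 0 counts is a lower bound against 3 counts over that group. Against 1 to 3 counts it is a ratio of pooled counts with an exact 95% interval. Both cover counting error only. Steps were tested on simulated counts.

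Named genes are the keratins with a mean of 1 CPM in a group or a call, their pair partners, and up to 4 called genes per other list and comparison with the largest fold change. The lists cover desmosomes and plakins, other intermediate filaments, epithelial transcription factors, and hepatocyte, bile duct, general epithelial, fibroblast and stellate, leukocyte and mesothelial markers. Members and lists were chosen with earlier results of these data known. The alternatives were RLE factors, DESeq2 1.42.0, limma-voom (limma 3.58.1), no filter, a strict filter (1 CPM in 3 libraries), only the groups compared, no second series of sample numbers, a minimum absolute log2 fold change of 1, and leaving out each library. Ratios without Krt18, marker sums without Vim and the ratio of Krt18 to Krt8 without each library were added after seeing the data. Replicates were numbered in order of deposition.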

Additional observations from a re-analysis of the deposited data

Results flagged for a closer look

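Levels of single libraries were compared with the rest of their group in TAZ-S89A, the group with enough libraries for Dixon's test, for 19 keratins. Krt15 stood apart in replicate 4, at 0.0408 CPM, which is 1 count where the other 4 libraries had 0. Krt87 stood apart in replicate 5, at 0.167 CPM against 0.319 in the nearest library. For normally distributed values chance sets apart about 1 group in 20, and 2 of the 19 were set apart here. A gene read in a single library, as Krt15 was, is always set apart, so that rate does not apply to it.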

How the results depend on the processing

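The number of keratins called ran, over the libraries left out in turn, from 16 to 18 for TAZ-S89A against YAP-S127A, 18 to 21 for TAZ-S89A against YAP-5SA and 18 to 21 for YAP-5SA against YAP-S127A. Without the low-count filter 28 were called for TAZ-S89A against YAP-5SA, more genes being tested, and under the other alternatives the 3 counts stayed within 1.5 times of 18. Krt13, not called for TAZ-S89A against YAP-5SA at -0.31, turned to 0.053 without the second ID series, and ran from -0.60 without YAP-5SA replicate 3 to 0.033 without YAP-5SA replicate 2. Krt16 there, at 0.30 and not called, ran from -0.089 without YAP-5SA replicate 3 to 0.77 without YAP-5SA replicate 2. The cause was not tested. Krt5 in TAZ-S89A against YAP-S127A was also lost with DESeq2 (adjusted p = 0.0515), voom (0.084), the strict filter (0.0525) and without the second ID series (0.0725), and Krt15 there with voom (0.174) and without the filter (0.051). Krt78 there was called with DESeq2 (0.0425) and voom (0.0133), and Krt23 in YAP-5SA against YAP-S127A with voom (0.0272) and with only the YAP libraries (0.0298). No paired analysis was possible because the labels carry no replicate numbers. RLE factors moved the median of all genes by under 0.1. For the 27 keratins not tested, and for Krt5, Krt15 and Krt16, depth limits any statement.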
